A study of Homo sapiens with 9 samples.

Results

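TXNIP, the alpha-arrestins ARRDC1 to ARRDC4 and the MondoA regulators MLXIP, MLXIPL and MLX were followed in Flip-In-293 cells, a human embryonic kidney line that carries a recombination site for inserting transgenes. The members are these 8 genes of 16748 tested, measured by the probe sets that the array annotation assigned to exactly 1 of their symbols. TXNIP and ARRDC4 were chosen on their lower signal against control in these same arrays, so their levels are given as a description with no test. The other 6 members joined them by family or pathway. All 8 passed the filter on low signal, which kept 170 of their 184 probe sets.

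Total RNA from cells infected with a lentivirus was hybridised to exon arrays, 3 arrays in each of 3 groups. The control virus carried a non silencing hairpin, the second virus a hairpin against CPSF3, the endonuclease that cuts pre-mRNA at the polyadenylation site, and the third a hairpin against RBFOX2, a splicing regulator. All 9 cultures had been infected and then grown for 10 days in DMEM with serum and antibiotics. The number of hairpins per target and the glucose content of the medium were not stated in the labels used here. The replicates are biological by their titles but technical by the text describing the series. The p-values below therefore cover only how these arrays vary, and that variation may be technical.

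Signals are log2 values made by RMA, and a difference of 1 is a change of 2-fold. The median signals of the 9 arrays differed by no more than 0.0332. The CPSF3 transcript itself was at 9.47 ± 0.29 (SD, n = 3) in the controls and 9.38 ± 0.19 in the arrays labelled CPSF3 knockdown, a difference of -0.09 ± 0.16 (SE; limma, adjusted p = 0.752). That label was therefore not borne out by the transcript, and every direction given for those arrays rests on the label. The RBFOX2 transcript was at 9.53 ± 0.14 in the controls and 8.94 ± 0.11 in the RBFOX2 knockdown arrays, a difference of -0.58 ± 0.12 (limma, adjusted p = 0.0617).

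All 6 HEK293 markers (PAX2, NEFL, NEFM, VIM, KRT8 and KRT18) were above the filter. So were 7 of 7 fibroblast, 5 of 6 blood, 5 of 5 endothelial and 4 of 4 hepatocyte markers, so passing it does not tell cell types apart. The mean signal of the HEK293 markers was 9.73 to 9.98 in the controls, 9.33 to 9.42 in the arrays labelled CPSF3 knockdown and 9.55 to 9.67 in the RBFOX2 knockdown arrays. By limma at an adjusted p under 0.05, NEFL, VIM and KRT8 fell in the former and none of the 6 was called in the latter. Fibroblast, blood, endothelial and hepatocyte marker lists had means between 6.28 and 7.28 in every group, near the median of all probe sets, with 0 genes called in either comparison. The part of the marker differences in the results on the members was not tested. In such bulk RNA, fewer cells of a type and less RNA per cell cannot be told apart.

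TXNIP and the ARRDC genes encode alpha-arrestins, adaptor proteins that bring NEDD4-family ubiquitin ligases to membrane proteins. TXNIP also binds and inhibits thioredoxin, and TXNIP and ARRDC4 both restrain glucose uptake. MondoA, the product of MLXIP, and its relative ChREBP, the product of MLXIPL, pair with MLX, enter the nucleus when glucose phosphates accumulate, and bind carbohydrate response elements. These elements consist of a pair of E-box-like motifs with 5 bases between them, and TXNIP and ARRDC4 are among the best-known genes they control.

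The stretches before the starts of TXNIP and ARRDC4 are shown because these are the members with the lowest signal relative to control. Both were taken from RefSeq for GRCh38.p14, whose promoter table matched all 8 members with 11 windows of 300 bases, of which the 250 bases before the start are printed 5′ to 3′ on the gene's strand. The TXNIP stretch lies at chr1:145996580-145996829 on the minus strand, and its capitals mark such a pair. The ARRDC4 stretch lies at chr15:97960453-97960702 on the plus strand, and its capitals mark an E-box.
TXNIP: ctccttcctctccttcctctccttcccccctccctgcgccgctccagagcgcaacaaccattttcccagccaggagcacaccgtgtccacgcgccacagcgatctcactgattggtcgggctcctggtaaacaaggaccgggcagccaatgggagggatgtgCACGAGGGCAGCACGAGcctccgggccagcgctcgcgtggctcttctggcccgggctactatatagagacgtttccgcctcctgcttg
ARRDC4: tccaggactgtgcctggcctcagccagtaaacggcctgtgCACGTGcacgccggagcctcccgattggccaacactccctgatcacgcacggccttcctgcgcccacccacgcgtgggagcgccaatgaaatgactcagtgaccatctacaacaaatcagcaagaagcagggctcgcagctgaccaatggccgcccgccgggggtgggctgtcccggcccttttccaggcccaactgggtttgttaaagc
The motif for the pair was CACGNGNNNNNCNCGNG, searched on both strands, and the E-box was CACGTG, which reads the same on both and can fill the first motif of the pair. In TXNIP the match was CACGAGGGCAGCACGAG, at -88 to -72 from the start. A second TXNIP window, for another annotated start, held neither motif. In ARRDC4 the E-box was at -210 to -205.

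The pair was found in 176 of 35116 windows in the table (0.501%), or 169 of 27305 genes (0.619%), and in 1 of the 8 members. CACGTG was found in 2548 windows (7.26%), or 2396 genes (8.77%), and in 2 members, ARRDC4 and MLX. In MLX it lay at -50 to -45 from the start (chr17:42567050-42567055). These matches are a description of the letters in short windows, not of binding. Of 127 tested genes with the pair, 20 were called higher and 5 lower in the arrays labelled CPSF3 knockdown (limma), with a median change of 0.04. The 13164 tested genes in the promoter table had 1423 called higher and 557 lower, with a median of 0.02. For the RBFOX2 knockdown arrays, 0 of the 127 were called higher and 1 lower, where 0.175% of the genes in the table were called. TXNIP is itself one of the 127 and one of the genes called lower in each comparison, and it was chosen on those values, so nothing is read from these counts.

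TXNIP had the second lowest change of all 16748 genes in both comparisons with control. Its level was 11.93, 11.96 and 11.56 on the control arrays. It was 9.46, 9.59 and 9.54 on the arrays labelled CPSF3 knockdown, and 10.35, 11.20 and 9.85 on the RBFOX2 knockdown arrays. The 3 groups did not overlap: every control array was above every RBFOX2 knockdown array, and each of those was above every array labelled CPSF3 knockdown. The RBFOX2 knockdown arrays were the most spread, with replicate 2 close to the controls and replicate 3 lowest.

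The mean TXNIP level was 11.81 ± 0.22 (SD, n = 3) in the controls, 9.53 ± 0.07 in the arrays labelled CPSF3 knockdown and 10.47 ± 0.68 in the RBFOX2 knockdown arrays. The difference was -2.28 ± 0.24 (SE) for the arrays labelled CPSF3 knockdown, 4.87-fold lower than control. For the RBFOX2 knockdown arrays it was -1.35 ± 0.24, or 2.55-fold lower. TXNIP was chosen on its differences from control, so their size against their error is not read as a test. That error comes from the model over all 9 arrays, whereas the RBFOX2 knockdown arrays alone had an SD of 0.68. The arrays labelled CPSF3 knockdown were lower than the RBFOX2 knockdown arrays by 1.91-fold, a difference of -0.93 ± 0.24. Without RBFOX2 knockdown replicate 2 that last difference was -0.57. Both comparisons with control share the same 3 control arrays.

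ARRDC4, the alpha-arrestin most akin to TXNIP in its induction by glucose, was lower mainly in the arrays labelled CPSF3 knockdown. Its level was 11.03, 10.98 and 11.82 on the control arrays. It was 9.44, 9.66 and 9.84 on the arrays labelled CPSF3 knockdown and 10.68, 11.37 and 10.53 on the RBFOX2 knockdown arrays. Every array labelled CPSF3 knockdown was below every other array, whereas the RBFOX2 knockdown arrays overlapped the controls through replicate 2. Control replicate 3 had the highest ARRDC4 level of the controls and the lowest TXNIP level.

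The mean ARRDC4 level was 11.28 ± 0.47 (SD, n = 3) in the controls, 9.64 ± 0.20 in the arrays labelled CPSF3 knockdown and 10.86 ± 0.45 in the RBFOX2 knockdown arrays. The arrays labelled CPSF3 knockdown differed from control by -1.63 ± 0.23 (SE), 3.10-fold lower, the sixth lowest change of all genes. The RBFOX2 knockdown arrays differed from control by -0.42 ± 0.23, a value given as a description only. It was -0.15 without control replicate 3, -0.25 without RBFOX2 knockdown replicate 3 and -0.67 without RBFOX2 knockdown replicate 2. Between the hairpins the difference was -1.22 ± 0.23, with the arrays labelled CPSF3 knockdown lower.

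**Figure D1:**
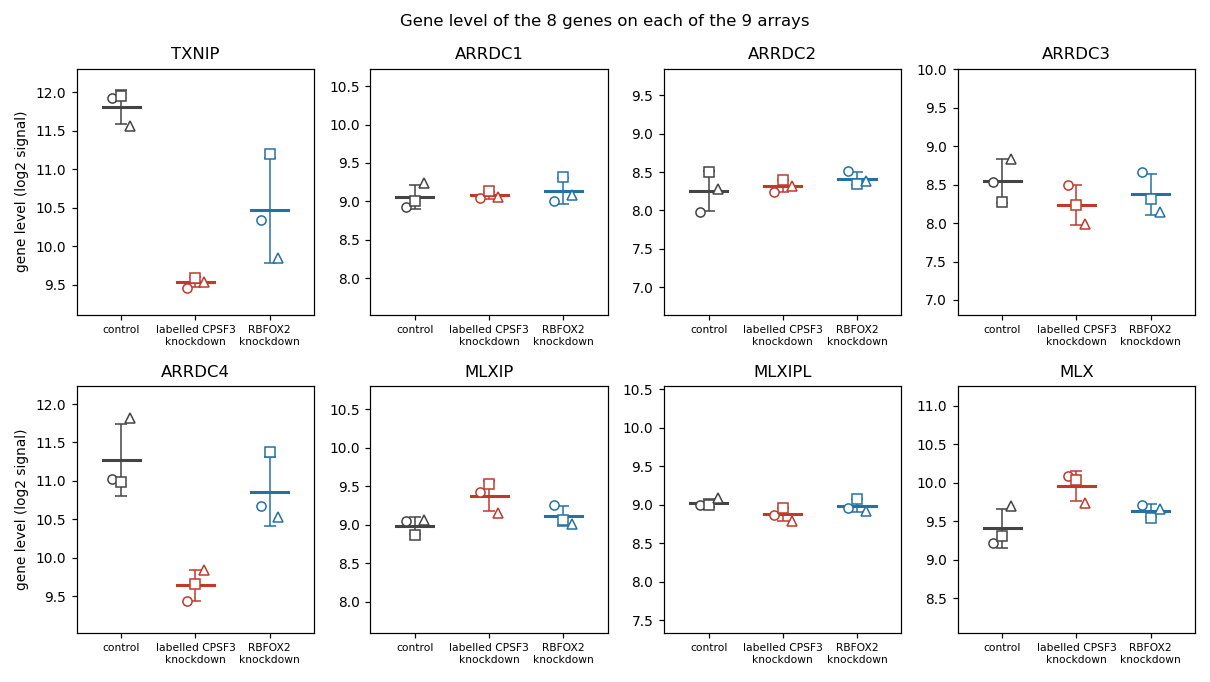
Log2 gene level of each of the 8 members on the 9 arrays, by group, with circles, squares and triangles for replicates 1, 2 and 3, a bar at the mean and an error bar of 1 SD. TXNIP falls into 3 separate groups of arrays, from 11.81 in the controls to 9.53 in the arrays labelled CPSF3 knockdown on average, ARRDC4 separates only the latter, and in each of the other 6 the highest and lowest group means differ by at most 0.55.

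Among the other alpha-arrestins none was called in either comparison. ARRDC3, an adaptor for beta-adrenergic receptors and integrins, was at 8.53, 8.27 and 8.83 on the control arrays. It was at 8.49, 8.24 and 7.98 on the arrays labelled CPSF3 knockdown and at 8.66, 8.31 and 8.14 on the RBFOX2 knockdown arrays, so the groups overlapped. Its difference was -0.31 ± 0.17 (SE; limma, adjusted p = 0.279) with a 95% interval from -0.68 to 0.07 in the arrays labelled CPSF3 knockdown. With RBFOX2 knockdown it was -0.17 ± 0.17 (limma, adjusted p = 0.740). The interval excludes a decrease of the size seen for ARRDC4. All 11 kept ARRDC3 probe sets had a lower mean in the arrays labelled CPSF3 knockdown, but 1 of 11 did so without overlap, a share near the 9.66% of all kept probe sets.

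ARRDC1, which drives the budding of vesicles from the plasma membrane, lay between 8.93 and 9.32 on all 9 arrays. Its difference was 0.02 ± 0.12 (limma, adjusted p = 0.948), with a 95% interval from -0.24 to 0.28, in the arrays labelled CPSF3 knockdown. With RBFOX2 knockdown it was 0.08 ± 0.12 (limma, adjusted p = 0.863). ARRDC2 lay between 7.98 and 8.51, with both extremes outside the arrays labelled CPSF3 knockdown. Its differences were 0.07 ± 0.13 (limma, adjusted p = 0.799; 95% interval from -0.22 to 0.35) and 0.16 ± 0.13 (adjusted p = 0.655). For both genes a change as large as that of TXNIP or ARRDC4 in the arrays labelled CPSF3 knockdown lay outside these intervals. TXNIP and ARRDC4 were chosen on such changes, so this too is a description only.

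Of the regulators, MLX, the obligate partner of MondoA and ChREBP, rose in the arrays labelled CPSF3 knockdown. Its level was 9.21, 9.31 and 9.69 on the control arrays, 10.09, 10.04 and 9.73 on the arrays labelled CPSF3 knockdown, and 9.71, 9.55 and 9.66 on the RBFOX2 knockdown arrays. All arrays labelled CPSF3 knockdown were above all controls, though replicate 3 exceeded control replicate 3 only narrowly. The mean went from 9.41 ± 0.25 (SD, n = 3) to 9.95 ± 0.19, a difference of 0.55 ± 0.14 (SE; limma, adjusted p = 0.0215) or 1.46-fold. The RBFOX2 knockdown arrays differed from control by 0.23 ± 0.14 (limma, adjusted p = 0.523), and the hairpins from each other by 0.31 ± 0.14 (adjusted p = 0.360). The call for MLX was lost in 6 of 18 other settings. It was 0.21 (limma, adjusted p = 0.448) without the filter, 0.36 (0.0529) with a filter at the upper quartile, 0.45 when control replicate 1 was left out and 0.50 when control replicate 2 was. Leaving out replicate 1 or 2 labelled CPSF3 knockdown gave 0.48 or 0.50.

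MLXIP, which encodes MondoA itself, was also higher on every array labelled CPSF3 knockdown but missed the threshold. Its level was 9.04, 8.87 and 9.06 on the control arrays, 9.43, 9.53 and 9.16 on those arrays, and 9.26, 9.07 and 9.01 on the RBFOX2 knockdown arrays. The difference was 0.38 ± 0.13 (SE; limma, adjusted p = 0.061) with a 95% interval from 0.11 to 0.65, and 24 of its 26 probe sets had a higher mean. It passed in 4 of 18 other settings, one of which left out replicate 3 labelled CPSF3 knockdown (limma, adjusted p = 0.0383). The RBFOX2 knockdown arrays differed from control by 0.12 ± 0.13 (limma, adjusted p = 0.745).

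MLXIPL, which encodes ChREBP, a regulator best known in liver, was at 9.00, 8.99 and 9.08 on the control arrays and at 8.87, 8.96 and 8.79 on the arrays labelled CPSF3 knockdown. These arrays lay below every control by a small margin, a difference of -0.15 ± 0.11 (SE; limma, adjusted p = 0.395) with a 95% interval from -0.38 to 0.08. In the RBFOX2 knockdown arrays, at 8.96, 9.08 and 8.92, the difference was -0.04 ± 0.11 (limma, adjusted p = 0.925).

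Over the 6 members not chosen on their signal, 1 of 6, MLX, was called in the arrays labelled CPSF3 knockdown, against 14.4% of all 16748 genes (1675 higher and 734 lower). This share is close to that of all genes. In the RBFOX2 knockdown arrays 0 of 6 were called by limma, with 0 at an unadjusted p under 0.05, against 0.173% of all genes. Between the hairpins 0 of 6 were called, with 1 at an unadjusted p under 0.05, against 0.4% of all genes. Among all genes, 13.2% had every array labelled CPSF3 knockdown below every control and 17.9% had every one above, so that separation alone is common. For RBFOX2 knockdown, 7.05% of all genes had every array below every control.

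Single probe sets show how far the TXNIP difference extends over the gene. All 15 kept TXNIP probe sets had every array labelled CPSF3 knockdown below every control, where 9.66% of all kept probe sets did, and the same 15 did so in the RBFOX2 knockdown arrays, where 6.05% of all did. The rule used this contrast, so nothing is read from these counts. The differences ran from -2.49 to -1.17 with a median of -2.32 in the arrays labelled CPSF3 knockdown, and from -1.61 to -0.77 with a median of -1.38 in the RBFOX2 knockdown arrays. Probe set 2356137 was the least changed in both, at -1.17 and -0.77, while the other 14 lay between -2.49 and -1.91 in the arrays labelled CPSF3 knockdown. The left-out probe set 2356138 had a mean signal of 4.07 in the controls.

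ARRDC4 was less even along its probe sets. In the arrays labelled CPSF3 knockdown, 20 of its 22 probe sets had every array below every control, where 9.66% of all kept probe sets did. ARRDC4 was chosen on its signal against control, so nothing is read from this count. Its 3 lowest-numbered probe sets, 3610612, 3610621 and 3610622, differed by -0.08, -0.21 and -0.45, although their control means of 9.00 to 9.99 were well above the filter. The other 19 differed by -1.80 to -1.36, with a median of -1.66. This division was made after the values were seen. All 22 had a lower mean in the RBFOX2 knockdown arrays, from -0.60 to -0.11. Of the 22, 0 did so without overlap, where 6.05% of all kept probe sets did.

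Of the 22 ARRDC4 probe sets, 8 belong to a second run of numbers, 4039069 to 4039084. Each of the 8 stayed within 0.06 to 0.45, on every array, of the closest by value among the 14 probe sets of the first run. Probe sets 4039073 and 4039078 had the same closest one, 3610635. Whether the 8 read the same sequence again was not tested. Leaving the 8 out gave -1.47 for the arrays labelled CPSF3 knockdown, -0.26 for the RBFOX2 knockdown arrays and -1.20 between the hairpins.

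**Figure D2:**
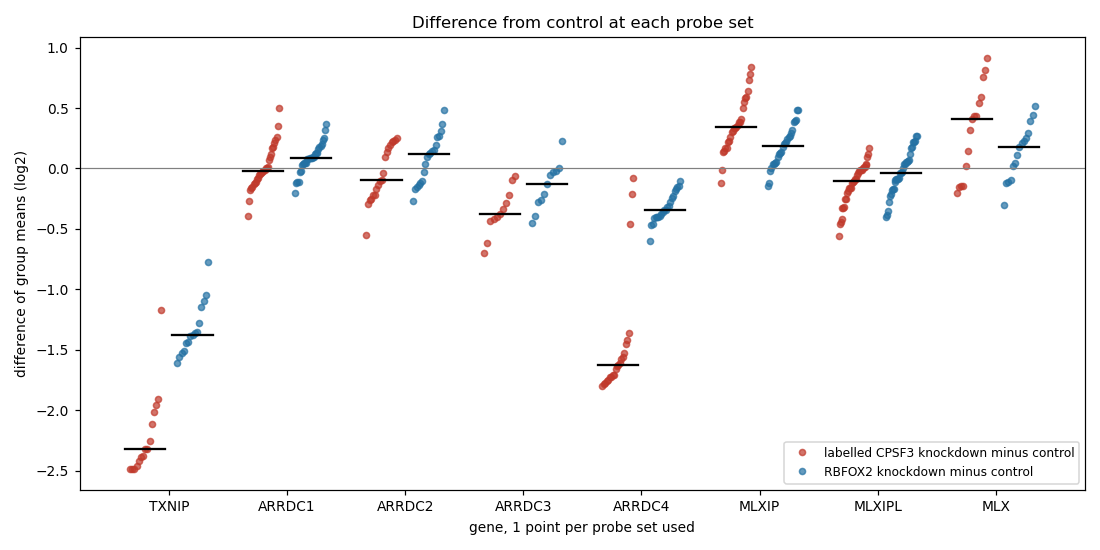
Log2 difference from control of each kept probe set of the 8 members, in the arrays labelled CPSF3 knockdown and in the RBFOX2 knockdown arrays. All 15 TXNIP probe sets lie below 0 in both, ARRDC4 has 3 probe sets near 0 and 19 between -1.80 and -1.36 in the arrays labelled CPSF3 knockdown, and the other 6 members have no probe set as low as those 19. Black bars are medians.

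Probe sets of MLX and MLXIP also differed among themselves. Of the 15 kept MLX probe sets, 7 had every array labelled CPSF3 knockdown above every control, where 10.6% of all kept probe sets did, with differences from 0.41 to 0.92. The other 8 overlapped and ran from -0.20 to 0.44, and 4 of these had a lower mean. This division follows the differences themselves and has no test of its own. MLXIP had 15 of 26 probe sets with every such array above every control, with differences from 0.30 to 0.84. In MLXIPL the mean was lower for 25 of 33 probe sets, and 7 of the 33 lay below control without overlap, where 9.66% of all kept probe sets did.

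Whether single probe sets moved apart from their gene was tested on the signal relative to the gene level of the same array, a measure of exon use. For TXNIP and ARRDC4 this measure contains the gene-level difference on which they were chosen, so their own values are a description. By limma, 0 of 170 member probe sets were called in the arrays labelled CPSF3 knockdown and 0 in the RBFOX2 knockdown arrays, where 0% of all 257548 were called in either. At an unadjusted p under 0.05 there were 21 of 170 (12.4%) against 12.7% of all in the arrays labelled CPSF3 knockdown, and 8 (4.71%) against 7.88% in the RBFOX2 knockdown arrays. The shares of the 170 were thus near or below those of all probe sets, but they include TXNIP and ARRDC4. TXNIP held 3 and ARRDC4 3 of the 21, and 1 and 0 of the 8, and nothing is read from these. Of the other members, ARRDC1 had 0 of 29, ARRDC2 2 of 19 and ARRDC3 1 of 11 in the arrays labelled CPSF3 knockdown. MLXIP had 5 of 26 there, MLXIPL 1 of 33 and MLX 6 of 15.

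Among the members, the largest rises of relative signal from control to the arrays labelled CPSF3 knockdown belonged to the 3 lowest-numbered ARRDC4 probe sets. These probe sets were singled out after their values were seen. The rises were 1.55 ± 0.39 (SE) for 3610612, 1.42 ± 0.33 for 3610621 and 1.18 ± 0.23 for 3610622. For TXNIP probe set 2356137 the value was 1.11 ± 0.26. These values restate that the probe sets differed less from control than their genes did. Without control replicate 3, MLX probe sets 3721887, at -0.98 ± 0.18 (limma, adjusted p = 0.0407), and 3721893, at -0.95 ± 0.18 (adjusted p = 0.0467), were called, while 3825 probe sets were called over all genes.

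**Figure D3:**
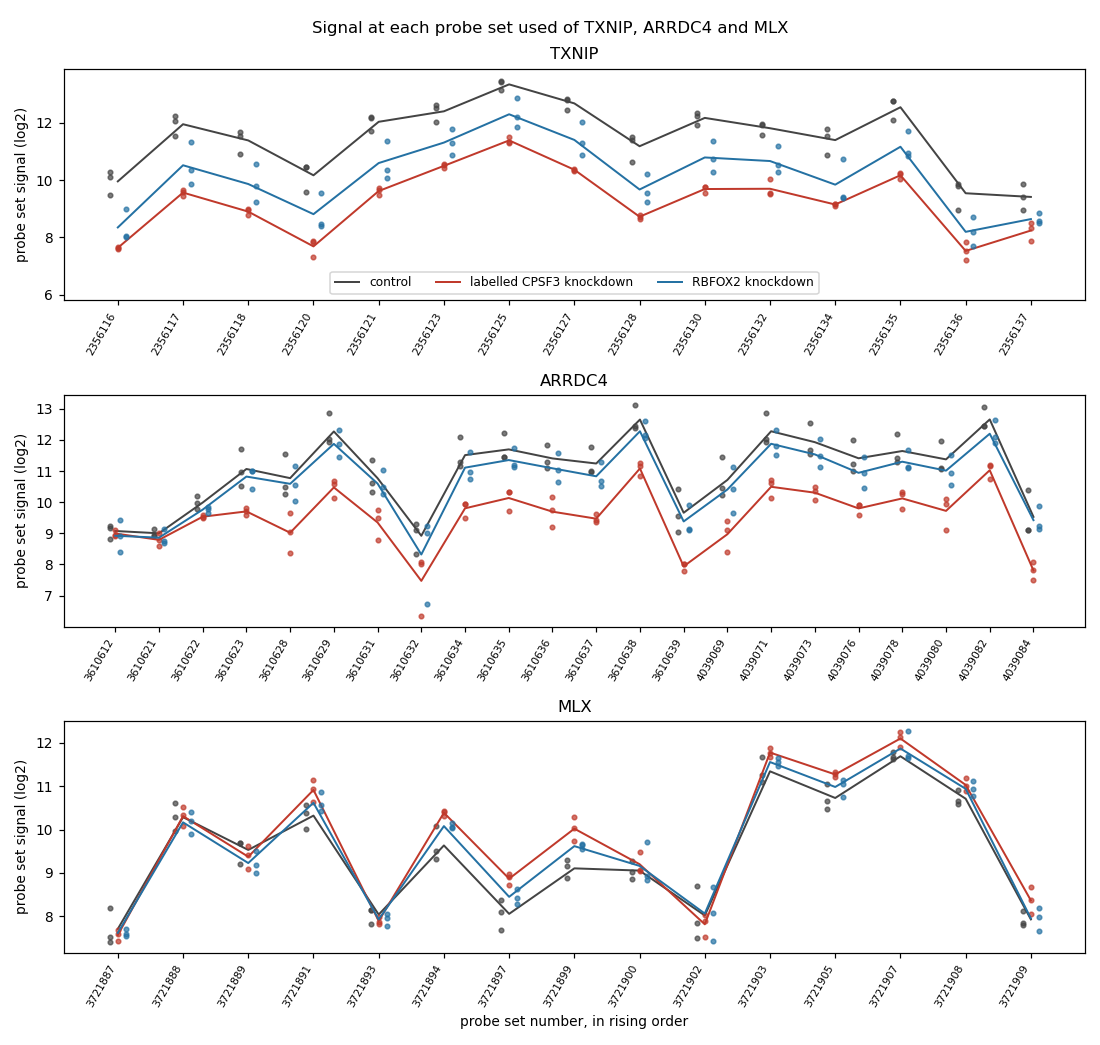
Log2 signal of the kept probe sets of TXNIP, ARRDC4 and MLX in order of probe set number, with a point per array and a line through the means of each of the 3 groups; the order of numbers is not a position on the gene. The lines for TXNIP are apart throughout, while at the 3 lowest-numbered ARRDC4 probe sets the mean of the arrays labelled CPSF3 knockdown differs from control by only -0.45 to -0.08.

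The pathway around the members was followed in lists of genes. Of 19 measured glucose-responsive targets of MondoA and ChREBP other than the members, 3 fell and 0 rose (15.8%, limma) in the arrays labelled CPSF3 knockdown, with a median difference of -0.13 where the median of all genes was 0.01. Over all genes 14.4% were called and 4.38% fell, so the called share of the list was near that of all genes. Those that fell were BHLHE40, a circadian and hypoxia-responsive repressor, by 1.55 ± 0.21 (SE; limma, adjusted p = 0.0015), RGS16, a regulator of G-protein signalling, by 0.85 ± 0.12 (adjusted p = 0.0015), and KLF10, a repressor induced by glucose, by 0.84 ± 0.15 (adjusted p = 0.0041). The lipogenic and glycolytic targets best known from liver did not pass, among them FASN at -0.02 and PKLR at -0.13. HK2, which phosphorylates glucose, was at -0.44 ± 0.14 (limma, adjusted p = 0.0524) and PFKFB3, which makes an activator of glycolysis, at -0.22 ± 0.10 (adjusted p = 0.182).

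In the RBFOX2 knockdown arrays 0 of these 19 were called in either direction by limma, with a median of -0.07 where the median of all genes was 0.03. BHLHE40 was at -1.13 (limma, adjusted p = 0.0567) and HK2 at -0.51 (adjusted p = 0.147). Without control replicate 3, 5 of the 19 fell in the arrays labelled CPSF3 knockdown and 3 in the RBFOX2 knockdown arrays. Over all 16748 genes, 848 and 369 fell in that setting, against 734 and 24 with all arrays. Calls thus rose over all genes as well, and nothing is read from these counts.

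Of 19 genes of glucose uptake and glycolysis, 5 fell and 0 rose in the arrays labelled CPSF3 knockdown (26.3%), and 4 fell and 0 rose in the RBFOX2 knockdown arrays (21.1%; limma). Over all genes 14.4% were called and 4.38% fell in the former, and 0.173% were called and 0.143% fell in the latter. SLC2A3, a high-affinity glucose transporter, was at 10.21, 10.24 and 10.55 on the control arrays. It was at 9.13, 9.47 and 9.35 on the arrays labelled CPSF3 knockdown and at 9.35, 9.64 and 9.37 on the RBFOX2 knockdown arrays. It fell by 1.02 ± 0.14 (SE; limma, adjusted p = 0.0012) and by 0.88 ± 0.14 (adjusted p = 0.0243). Without the filter both calls were lost, at -0.68 (limma, adjusted p = 0.0526) and -0.37 (adjusted p = 0.49). ENO2, an enolase, fell by 1.33 (limma, adjusted p = 0.00055) and 0.92 (adjusted p = 0.0255). ALDOC, an aldolase, fell by 1.00 (adjusted p = 0.0012) and 0.77 (adjusted p = 0.0414), and PGK1, a glycolytic kinase, by 0.80 (adjusted p = 0.0015) and 0.61 (adjusted p = 0.048). PDK1, which restrains pyruvate entry into mitochondria, fell in the arrays labelled CPSF3 knockdown by 0.70 ± 0.12 (limma, adjusted p = 0.0031). In the RBFOX2 knockdown arrays PDK1 was at -0.58 ± 0.12 and just missed the threshold (limma, adjusted p = 0.0631).

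SLC2A1, the glucose transporter that TXNIP binds and removes from the cell surface, was not among them. Its differences were -0.07 ± 0.15 (SE; limma, adjusted p = 0.825) and 0.07 in the RBFOX2 knockdown arrays. The 4 calls in the RBFOX2 knockdown arrays depended on which arrays were in the model. Of the 19 genes, 0 were called there when control replicate 1, control replicate 2, RBFOX2 knockdown replicate 1 or RBFOX2 knockdown replicate 3 was left out. Over all 16748 genes, 2, 9, 7 and 2 were called in those settings, in that order, against 29 with all arrays. There were 2 of the list called without replicate 1 labelled CPSF3 knockdown, 1 without replicate 2 or 3 of that label, and 6 without control replicate 3. Over all genes the calls were 22, 11 and 11 without replicates 1, 2 and 3 of that label, and 1546 without control replicate 3. Without RBFOX2 knockdown replicate 2, 30 genes were called, SLC2A3 among them (limma, adjusted p = 0.0306). The list counts thus moved with the calls over all genes. The differences themselves moved less with an array left out: SLC2A3, for example, was at -0.94 without control replicate 1 and -0.83 without RBFOX2 knockdown replicate 1. In the arrays labelled CPSF3 knockdown, 4 to 9 fell over 18 other settings.

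In the thioredoxin system the called share was near that of all genes. Of 20 thioredoxin genes, 1 rose and 1 fell in the arrays labelled CPSF3 knockdown (10%, limma), where 14.4% of all genes were called. In the RBFOX2 knockdown arrays 0 of the 20 were called, against 0.173% of all genes. TXN, thioredoxin itself, was at -0.27 ± 0.21 (SE; limma, adjusted p = 0.437), and its reductase TXNRD1 at -0.02 ± 0.12 (adjusted p = 0.952). PRDX5, a peroxiredoxin, fell by 0.69 ± 0.14 (limma, adjusted p = 0.0067). SRXN1, which repairs peroxiredoxins, rose by 0.57 ± 0.16 (adjusted p = 0.035), a call lost in 8 of 18 other settings. Among them were leaving out control replicate 1 or 2, any replicate labelled CPSF3 knockdown or RBFOX2 knockdown replicate 2. In the RBFOX2 knockdown arrays SRXN1 was at a similar 0.56 ± 0.16, without being called (limma, adjusted p = 0.162). Both groups overlapped the controls through control replicate 3.

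NEDD4-family ligases are the enzymes that alpha-arrestins recruit. Of 11 ligases and adaptors, 4 rose and 0 fell in the arrays labelled CPSF3 knockdown (36.4%, limma), with a median difference of 0.30, and 0 were called in the RBFOX2 knockdown arrays, with a median of 0.23. Over all genes 14.4% were called in the former, where 1675 of 16748 rose and the median was 0.01. In the latter 0.173% of all genes were called, with a median of 0.03. SMURF1 rose by 0.57 ± 0.12 (SE; limma, adjusted p = 0.0096), SMURF2 by 0.51 ± 0.13 (adjusted p = 0.0168) and WWP2 by 0.39 ± 0.12 (adjusted p = 0.0488). The call for SMURF1 was lost in 2 of 18 other settings (adjusted p up to 0.0974), that for SMURF2 without control replicate 1 or replicate 1 or 3 labelled CPSF3 knockdown and that for WWP2 without any 1 of the arrays. ITCH, a ligase that ubiquitinates TXNIP, was at 9.33, 9.16 and 9.41 on the control arrays and at 9.74, 9.69 and 9.62 on the arrays labelled CPSF3 knockdown, without overlap. It rose by 0.38 ± 0.11 (limma, adjusted p = 0.0348), a call lost without the same arrays as that of SRXN1. The number of the 11 that rose was 1 without control replicate 1 or without replicate 1 or 3 labelled CPSF3 knockdown. It was 2 without control replicate 2, replicate 2 labelled CPSF3 knockdown or RBFOX2 knockdown replicate 2, and ran from 1 to 5 over all 18 settings. Over all genes, 776, 562 and 1246 rose in the settings with 1, in the order named. In the settings with 2, the genes that rose were 670, 1035 and 1444.

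Of the 8 measured other arrestin-fold genes, 1 rose and 0 fell in the arrays labelled CPSF3 knockdown, VPS26A of the retromer at 0.48 ± 0.14 (SE; limma, adjusted p = 0.0404), and 0 were called in the RBFOX2 knockdown arrays. The call for VPS26A was lost in 7 of 18 other settings, among them leaving out replicate 1 or 2 of the controls or of the arrays labelled CPSF3 knockdown, or RBFOX2 knockdown replicate 1. In the MAX and MLX network, 1 of 9 measured genes rose and 1 fell in the arrays labelled CPSF3 knockdown, and 0 were called in the RBFOX2 knockdown arrays. In the former, 12.5% of the arrestin-fold list and 22.2% of this network were called, against 14.4% of all genes. In the latter, 0.173% of all genes were called. The gene that fell was MAX, the common partner of the network, at -0.51 ± 0.15 (limma, adjusted p = 0.0364), but it was at 0.58 (adjusted p = 0.0123) with a filter at the upper quartile, so its direction depends on which probe sets are kept. That call was also lost without control replicate 1 or 3 or any replicate labelled CPSF3 knockdown. MGA, a MAX partner, rose by 0.51 ± 0.16 (limma, adjusted p = 0.0476), a call lost when any array but control replicate 3 was left out.

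AMP-activated kinase phosphorylates TXNIP when energy is low and so marks it for removal. Of its 9 listed genes, 2 catalytic subunits rose in the arrays labelled CPSF3 knockdown, PRKAA1 by 0.57 ± 0.12 (SE; limma, adjusted p = 0.0085) and PRKAA2 by 0.59 ± 0.14 (adjusted p = 0.0136), and the regulatory subunit PRKAB2 fell by 0.69 ± 0.18 (limma, adjusted p = 0.0222). The called share of the list was 33.3%, where 14.4% of all genes were called, 10% higher and 4.38% lower. In the RBFOX2 knockdown arrays 0 of the 9 were called, against 0.173% of all genes, and PRKAB2 was at -0.72 (limma, adjusted p = 0.121). The call for PRKAA1 was lost without the filter (adjusted p = 0.059), that for PRKAA2 without control replicate 2 or replicate 1 labelled CPSF3 knockdown, and that for PRKAB2 without replicate 1 or 2 of either of those groups.

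**Figure D4:**
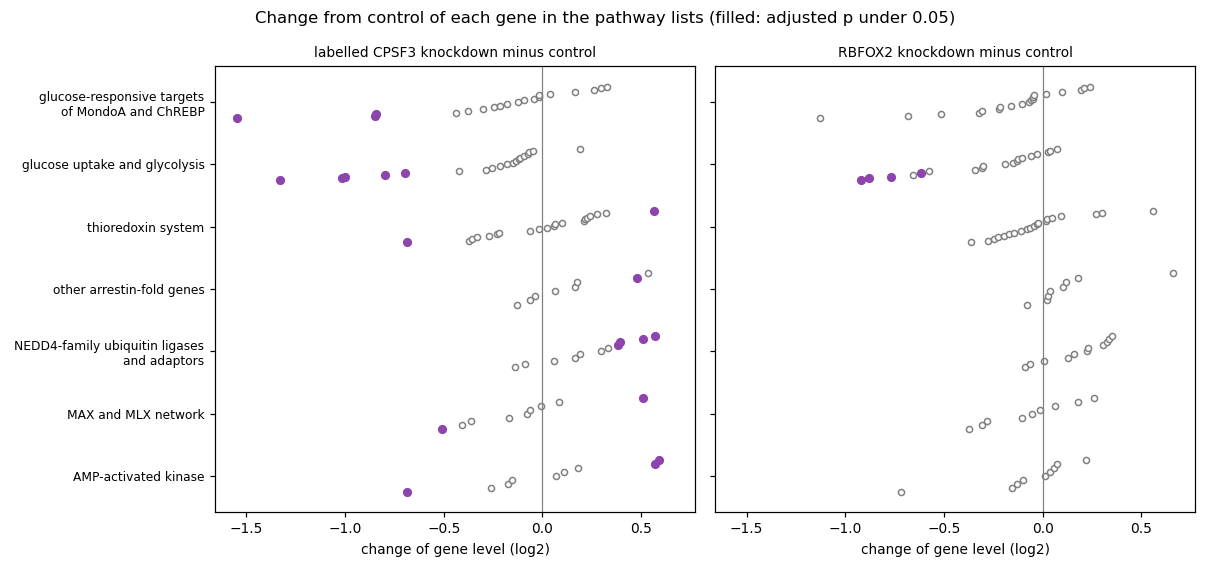
Log2 difference from control of each measured gene of the 7 pathway lists in the arrays labelled CPSF3 knockdown and in the RBFOX2 knockdown arrays, with the genes called by limma marked. In the glucose uptake list 5 and 4 genes fell and 0 rose, and in the list of NEDD4-family ligases 4 rose in the arrays labelled CPSF3 knockdown and 0 fell.

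The genes whose pattern over the 9 arrays was most like those of TXNIP and ARRDC4 were found by the root mean square difference of gene levels, each centred on its own mean. For TXNIP they were NRN1 (0.363), STC1 (0.376), DDIT4 (0.383), P4HA1 (0.388) and BHLHE40 (0.423), where the median over all genes was 1.01. NRN1 encodes a neuronal surface protein, STC1 a secreted hormone, DDIT4 an inhibitor of mTORC1 and P4HA1 a collagen prolyl hydroxylase. STC1 differed from control by -2.38 ± 0.23 (SE) in the arrays labelled CPSF3 knockdown and by -0.86 ± 0.23 in the RBFOX2 knockdown arrays. DDIT4 differed by -1.82 ± 0.12 and -0.90 ± 0.12. These genes were picked for their likeness, so their values are a description.

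For ARRDC4 the nearest were GDF15 (0.252), ENPP2 (0.289), ADAMTS1 (0.293), ALDH1L2 (0.295) and SLC7A3 (0.326), where the median over all genes was 0.782. GDF15, a stress-induced cytokine, differed by -1.54 ± 0.15 (SE) in the arrays labelled CPSF3 knockdown and by -0.60 ± 0.15 in the RBFOX2 knockdown arrays. ALDH1L2, a mitochondrial folate enzyme, differed by -1.45 ± 0.13 and -0.31 ± 0.13, and SLC7A3, a transporter of cationic amino acids, by -1.01 ± 0.13 and -0.16 ± 0.13. TXNIP and ARRDC4 were at 0.529 from each other. ARRDC4 was the 23rd nearest gene to TXNIP, while TXNIP was the 162nd nearest to ARRDC4, so neither was the other's closest match.

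**Figure D5:**
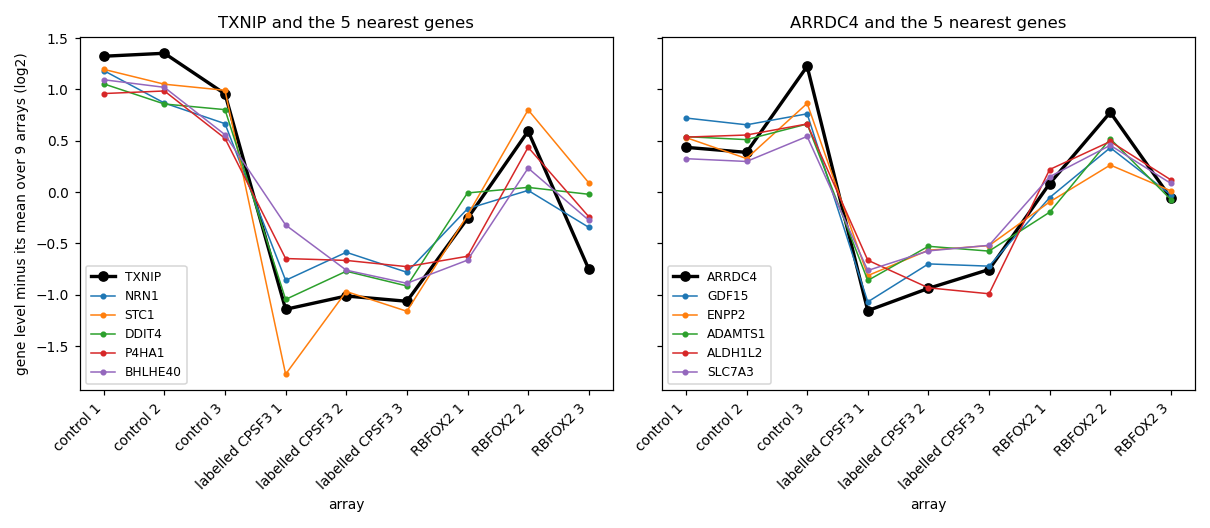
Log2 gene level minus its own mean over the 9 arrays, for TXNIP with its 5 nearest genes and for ARRDC4 with its 5 nearest genes; the lines only guide the eye between arrays. The TXNIP set is low in the arrays labelled CPSF3 knockdown and mostly between those and the controls in the RBFOX2 knockdown arrays, where TXNIP is the most spread, and the ARRDC4 set is low mainly in the arrays labelled CPSF3 knockdown.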

How the data were processed

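The deposited values are log2 signals, 1 for each of 1384231 probe sets and array; per the submitters' processing notes they come from RMA in Affymetrix Power Tools (hg18), while the Exon Array Computational Tool is named in the text of the series. Their versions and any filters are not given in the sources. Because RMA gives all arrays 1 distribution, a shift common to most transcripts would not show, and the number of arrays limits the precision.

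The platform annotation gave 354600 probe sets 1 gene symbol. Of 19497 symbols, 16426 were current in RefSeq (GRCh38.p14) and 2950 were updated. Probe sets with a mean at or above the median of all (6.97) were kept, and a gene's level was the median of at least 3. The fits used limma 3.58.1 under R 4.3.3, with data.table (version 1.17.8), in a single model of 3 groups without a block, 2-sided, with Benjamini-Hochberg adjustment at 0.05 over all features; the steps were tested on simulated data. Relative exon signal needed 5 kept probe sets. Members and lists were chosen with earlier results of these data known. Named genes were the members, both targets, chosen partners, per list up to 2 highest and 2 lowest called genes or the one with the smallest p, and the 5 nearest patterns; KLF10, ALDOC, PGK1, PDK1, WWP2, FASN and PKLR were named after their values were seen. One further partner and the members' proteins are not reported here. The filter, scaling, gene summary, model, replicate block and each array were varied.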

Additional observations from a re-analysis of the deposited data

How the results depend on the processing

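Differences of TXNIP and ARRDC4 from control kept their direction in every setting run. For TXNIP they ran from -2.41 to -2.21 in the arrays labelled CPSF3 knockdown and from -1.71 to -1.04 in the RBFOX2 knockdown arrays. For ARRDC4 they ran from -1.78 to -1.36 and from -0.67 to -0.15.

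The number of genes called by limma depended far more on the setting. In the arrays labelled CPSF3 knockdown it was 4817 with array weights and 965 to 3429 with an array left out, against 2409. In the RBFOX2 knockdown arrays it was 7 without the filter, 44 with the mean as gene level, 5 with only the 2 groups compared, 1513 with array weights and 2 to 1546 with an array left out, against 29. Between the hairpins it was 18 without the filter, 140 with the mean, 149 with the 2 groups alone, 601 with weights and 14 to 145 with an array left out, against 67. Of the 6 members not chosen on their signal, 0 were called in the arrays labelled CPSF3 knockdown without the filter, 2 with the mean or array weights, and 0 to 2 with an array left out. Member exon probe sets called there were 0 to 2 with an array left out.

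MAX turned from -0.51 to 0.58 with a filter at the upper quartile and to 0.0098 with the mean as gene level. The cause was not tested.

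Samples with the same replicate number had deviations from their group means correlated from -0.143 to 0.332. Samples with different numbers were not compared, so whether the numbers pair the samples was not tested. With a replicate block 2564, 137 and 42 genes were called in the 3 comparisons. No other scaling moved the median of all genes by over 0.1.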
